A study of Rattus norvegicus with 9 samples.

Results

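Complex I is the first enzyme of the mitochondrial respiratory chain, and its nuclear genes carry the prefix Nduf. They were examined here in RNA from dissected dendrites of rat hippocampal neurons. Members were the genes whose symbol began with Ndufa, Ndufb, Ndufc, Ndufs or Ndufv and which at least 1 probe set of the Affymetrix rat array named alone. This gave 42 genes, measured by 46 probe sets, of 14217 genes and 31042 probe sets in all.

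Hippocampal neurons of Sprague-Dawley rats were taken at embryonic day 19 and kept for 14 days in culture without treatment, and their dendrites were cut off with a glass pipette. A pool held 100, 200 or 400 dendrites from several cells, and 3 arrays were hybridised for each pool size. The labels call the cells pyramidal neurons and the arrays biological replicates, but do not tie an array to a culture or an animal, so that the p-values below measure only the spread between these samples. All 9 arrays share strain, age and treatment, and the number of dendrites is the only difference between the groups that the labels give. Axons could not be told from dendrites by eye during collection. Mouse arrays were not analysed here.

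Complex I takes electrons from NADH, passes them along a chain of iron-sulphur clusters to ubiquinone, and pumps protons out of the mitochondrial matrix. Its matrix arm holds the flavin and the clusters, and its membrane arm holds the proton pumps. The core subunits carry out catalysis and are shared with bacteria, with those of the membrane arm encoded in mitochondrial DNA, and many accessory subunits surround them. Assembly factors help to build the enzyme and are not part of the finished complex. Neurons depend heavily on this pathway for ATP, and mitochondria are transported into their dendrites. Proteins of the nuclear genes are made on cytosolic ribosomes and imported into mitochondria.

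The 42 members comprised 6 core subunits of the matrix arm, 9 accessory subunits of the matrix arm, 18 of the membrane arm, the acyl carrier Ndufab1 that sits in both arms, 6 assembly factors, and Ndufa4 with its relative Ndufa4l2. Ndufa4 was first described in complex I and is now counted with complex IV. The mitochondrially encoded core subunits, Ndufaf2 and Ndufaf6 were not analysed here. A probe set that named both Ndufs5 and a pseudogene and one that named both Ndufa10 and Ndufa10l1 were left out by the rule, at mean log2 signals of 8.95 ± 0.48 and 9.13 ± 0.90 (SD, n = 9).

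The arrays had median log2 signals of 7.46 to 7.53 over the probe sets, and they correlated with each other at r = 0.672 to 0.869 over genes in 36 pairs. Of 7 measured markers of pyramidal neurons, 3 stood in the top 5% of genes, led by the transcription factor Neurod2 at the 99.9th percentile, while Camk2a, a kinase of excitatory synapses, stood at the 26.3rd. Astrocyte markers had a median percentile of 86.0 over 7 genes with Gfap at the 86.0th and Aqp4 at the 7.39th, those of microglia had 33.2 over 8 genes, and those of the oligodendrocyte lineage 58.4 over 7. Of 5 markers of endothelium, with a median percentile of 68.0, 2 stood in the top 5%, Vwf at the 99.8th percentile and Esam at the 98.6th. Pecam1 stood at the 68.0th, Tie1 at the 55.6th and Cldn5 at the 24.7th. In pooled RNA, fewer cells of a type and less RNA per cell cannot be told apart.

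Complex I genes were spread over the whole ranking of dendrite signals, with accessory subunits high and core subunits and assembly factors low. Genes were ranked within each array, and a gene's percentile was taken from the median of its 9 ranks. Signal depends on the affinity of each probe, so that a percentile ranks signals and not amounts of RNA. Of the 42 members, 7 or 16.7% stood in the top 5% of genes, where 5% of all genes stand by construction, and 9 stood above the 90th percentile. The median percentile was 69.3 for the members and 49.99 for all genes, and 28 of the 42 lay above the 50th.

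**Figure D1:**
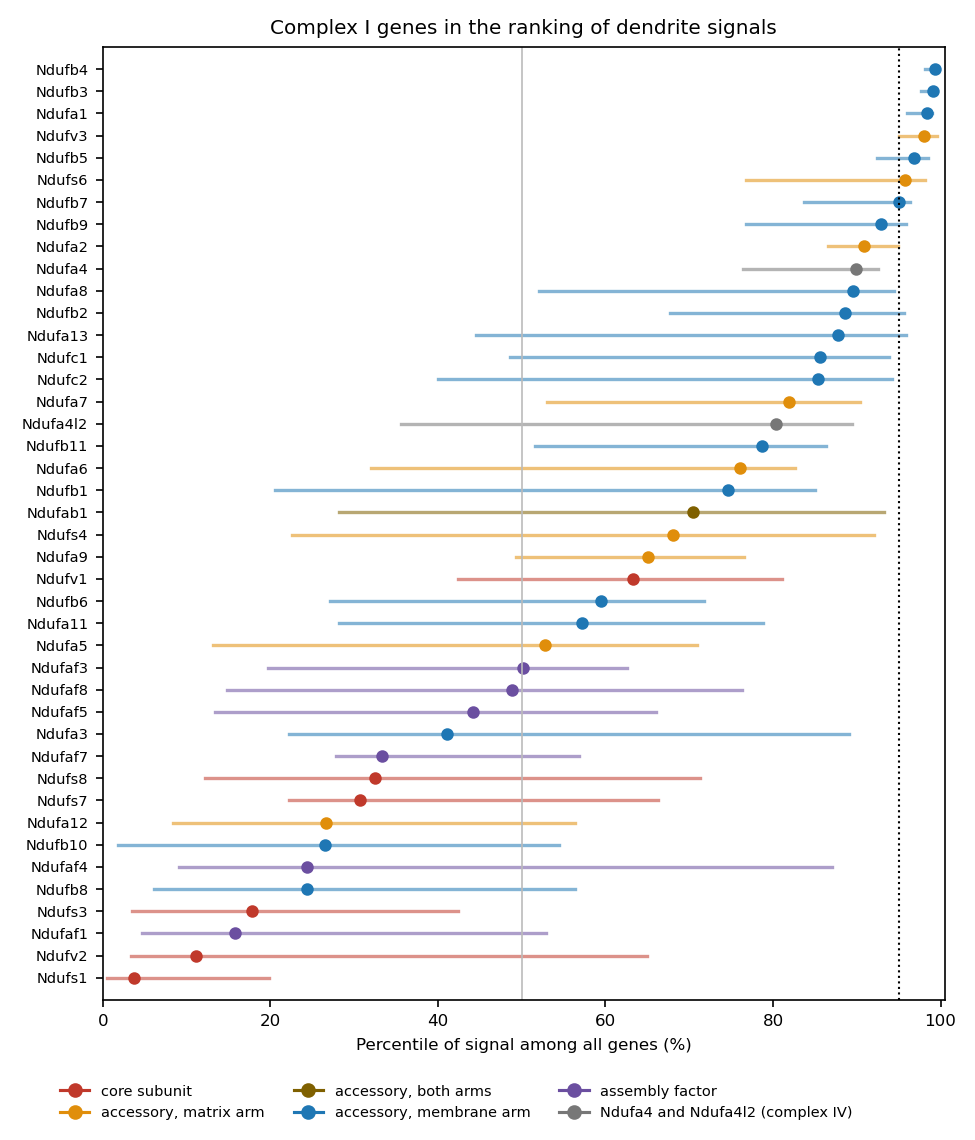
Percentile of each complex I gene in the ranking of log2 signal among 14217 genes, with the dot at the median rank over the 9 arrays and the line from the lowest to the highest array. The dotted line marks the 95th percentile and the grey line the 50th. Blue and orange accessory subunits fill the upper rows, and red core subunits take 3 of the 4 lowest rows.

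The accessory subunits Ndufb4 and Ndufb3 of the membrane arm gave the highest signals of the family. Ndufb4 had log2 signals of 11.30, 12.12 and 12.17 in pools of 100 dendrites, 12.41, 12.17 and 12.01 in pools of 200, and 11.96, 12.13 and 12.01 in pools of 400. Ndufb3 read 11.40, 12.13 and 11.70, then 11.22, 11.78 and 12.12, then 11.33, 12.14 and 11.92 in the same order. Both varied little, the lowest array of Ndufb4 was 1 of the smallest pools, and the 3 pool sizes overlapped for both. They stood at the 99.3rd and 99.1st percentiles. The RefSeq gene table names 7 pseudogenes and 4 like-named genes for Ndufb4 and 3 like-named genes for Ndufb3. It names pseudogenes for 18 of the 42 members in all. Ndufv3 has 2, Ndufa1 and Ndufs6 have 1 each, and Ndufb5 and Ndufb7 have 0. Among core subunits Ndufv2 has 1, and Ndufs1, Ndufs3, Ndufs7, Ndufs8 and Ndufv1 have 0. Whether transcripts of such copies reach the probe sets of these members was not tested.

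Ndufa1, a membrane arm subunit needed for assembly, read 10.55, 11.72 and 11.60 in pools of 100, 11.43, 10.93 and 11.57 in pools of 200, and 11.17, 12.03 and 11.58 in pools of 400, which put it at the 98.4th percentile. Ndufv3, an accessory subunit beside the flavin site, followed at the 98.0th. With Ndufb4 and Ndufb3 these were the members that stood in the top 5% on each of the 9 arrays, 4 of 42 or 9.52%, against 2.15% of all genes. Ndufb5 of the membrane arm stood at the 96.9th percentile, and the zinc-binding matrix arm subunit Ndufs6 at the 95.7th. Ndufs6 read 8.56 on replicate 1 of pools of 100 and 9.13 on replicate 1 of pools of 400, and 10.18 to 11.52 on the other arrays. Ndufb7, at the face towards the intermembrane space, closed the top 5% at the 95.1st percentile, and Ndufb9 was just outside it at the 92.9th.

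Core subunits gave low signals. Of the 6 measured, 0 stood in the top 5%, 1 lay above the 50th percentile, and their median percentile was 24.3. Ndufs1, which carries iron-sulphur clusters of the matrix arm, was the lowest member. It read 5.56, 5.09 and 5.01 in pools of 100, 6.44, 5.61 and 6.10 in pools of 200, and 5.96, 5.21 and 6.14 in pools of 400. Every array put Ndufs1 below the 20th percentile, and its median rank was at the 3.76th. Ndufv2, a cluster-binding partner of the flavin subunit, read 6.51, 5.40 and 5.47, then 6.22, 6.06 and 6.16, then 5.91, 8.11 and 6.33 in the 3 pool sizes. Its replicate 2 of the largest pools stood well above the other 8 arrays, and its percentile over all arrays was 11.1.

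Ndufs3, a subunit near the ubiquinone site, read 5.46, 6.66 and 6.87, then 6.30, 6.53 and 6.29, then 7.33, 6.46 and 5.96. Ndufs3 and Ndufs1 were the 2 of 42 members that stayed below the 50th percentile on each array, where 21.8% of all genes did. The median rank of Ndufs3 was at the 17.8th percentile. Ndufs8 and Ndufs7, which hold the last clusters before ubiquinone, stood at the 32.4th and 30.7th percentiles. The exception was Ndufv1, which binds NADH and the flavin, with 7.32 to 8.81 over the arrays and the 63.3rd percentile. It was above the 50th percentile on 7 of 9 arrays.

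Accessory subunits stood higher as a class. Of 28, 7 were in the top 5% and 24 above the 50th percentile, and their median percentile was 83.6. The 18 of the membrane arm had a median percentile of 86.6 with 5 in the top 5%, and the 9 of the matrix arm had 76.0 with 2. Ndufa8 at the 89.5th percentile, Ndufb2 at the 88.6th, Ndufa13 at the 87.7th, Ndufc1 at the 85.6th and Ndufc2 at the 85.4th filled the stretch below the leading genes. Low accessory subunits were Ndufa3 at the 41.1st percentile, Ndufa12 at the 26.7th, Ndufb10 at the 26.5th and Ndufb8 at the 24.3rd. The split by arm and role was made with the values known, and a higher rank of a class was not tested.

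The 6 assembly factors ran from the 15.8th to the 50.1st percentile with a median of 38.7, and 0 stood in the top 5%. Ndufaf1, of the complex that builds the membrane arm, was the lowest at the 15.8th, with 5.53 to 7.68 over the arrays. Ndufaf3 stood at the 50.1st percentile and Ndufaf4, which acts with it on the ubiquinone module, at the 24.4th. Ndufaf7, an arginine methyltransferase, stood at the 33.3rd. Ndufaf5, which hydroxylates Ndufs7, stood at the 44.2nd, and its partner Ndufaf8 at the 48.8th. Assembly factors without the Nduf prefix had a median percentile of 31.2 over 11 measured of 12 listed. Tmem70, which also serves ATP synthase, was the 1 among them in the top 5%, at the 96.5th. Nubpl, which delivers iron-sulphur clusters to complex I, was the lowest at the 8.63rd.

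Ndufa4 read 9.69, 9.37 and 8.60 in pools of 100, 9.82, 8.77 and 9.41 in pools of 200, and 8.92, 9.08 and 9.61 in pools of 400. It stood at the 89.9th percentile and above the 50th on all 9 arrays. Ndufa4l2, known as a target of hypoxia signalling, stood at the 80.3rd with 7.08 to 9.42 over the arrays.

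The other complexes of the chain stood high in the ranking as well. Complex IV had a median percentile of 94.5, with 9 of 19 genes in the top 5%, the mitochondrially encoded COX1 and COX2 among them. ATP synthase had 89.3 with 4 of 16, complex II 81.5 with 0 of 4, and complex III 80.5 with 2 of 8. Complex I subunits without assembly factors and the Ndufa4 pair had 75.3, with 7 of 34 in the top 5%. The complex IV list was made by gene symbol. It holds Cox7a2l, at the 99.4th percentile, and the pseudogene Cox6c-ps1, at the 89.8th, but not Ndufa4. Within complex III the small subunits Uqcr10 and Uqcr11 stood at the 99.6th and 97.2nd percentiles and the larger Uqcrc2 at the 23.5th.

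**Figure D2:**
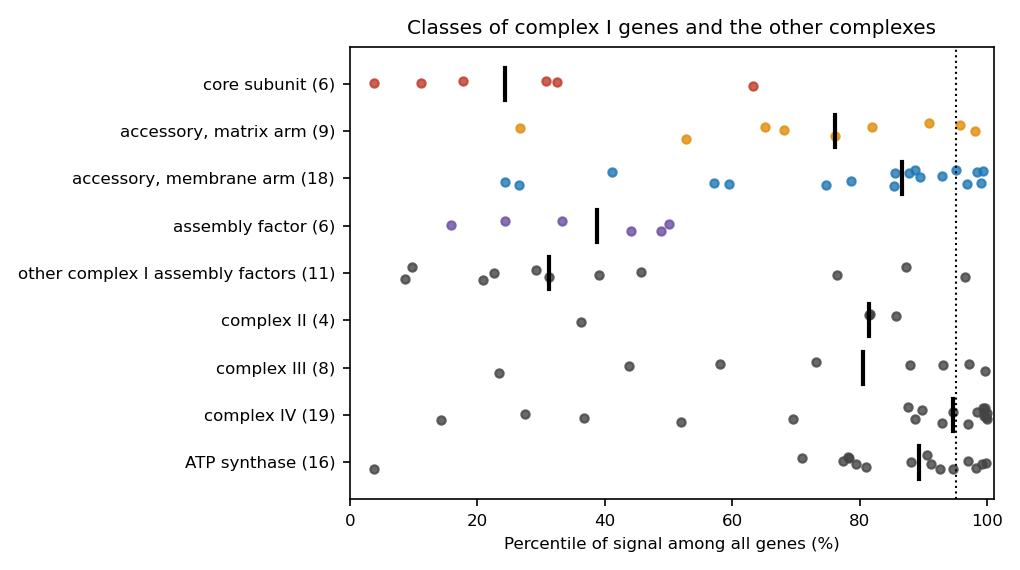
Percentile of signal among 14217 genes for the classes of complex I genes and for other lists, with 1 dot per gene, the black bar at the median of the list and the number of genes in brackets. Core subunits have a median of 24.3 and accessory subunits of the membrane arm 86.6, and the dotted line marks the 95th percentile.

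A rank depended on which probe set measured the gene. Of the 42 members, 38 had 1 probe set and 4 had several. For Ndufv3, one probe set read 13.11 ± 0.19 (SD, n = 9) and the other 9.45 ± 0.94, a difference of 3.66 log2 units. For Ndufa7 of the matrix arm, they read 10.23 ± 0.85 and 7.19 ± 0.77. For Ndufaf7 they read 8.14 ± 0.44 and 6.17 ± 0.58. In these 3 genes the probe sets did not overlap over the arrays, and the value used for the gene lies between them. The probe sets of Ndufa9 differed by 0.18 in their means. When each gene was represented by its brightest probe set instead, this left 4 members in the top 5% and a median percentile of 59.2. The 38 members with 1 probe set kept their signals, and the mean signals of the other 4 could not fall. Among all 14217 genes, 4525 had several probe sets, so that the members fell in rank against other genes.

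Promoter sequence was set beside the ranks. Nuclear respiratory factor NRF1, ETS factors such as GABP, and YY1 are known regulators of nuclear genes for mitochondrial proteins. RefSeq promoters of the rat build GRCr8, of 300 bases with 250 before and 50 after the annotated start, were matched by Entrez ID for 40 of the 42 members. Ndufb4 is shown as the highest member, Ndufs1 as the lowest, and Ndufs6 as the 1 member with the letters of both NRF1 and YY1. Capitals mark matches to the motifs of NRF1, ETS factors or YY1.
Ndufb4, chr11:76568928-76569227, plus strand: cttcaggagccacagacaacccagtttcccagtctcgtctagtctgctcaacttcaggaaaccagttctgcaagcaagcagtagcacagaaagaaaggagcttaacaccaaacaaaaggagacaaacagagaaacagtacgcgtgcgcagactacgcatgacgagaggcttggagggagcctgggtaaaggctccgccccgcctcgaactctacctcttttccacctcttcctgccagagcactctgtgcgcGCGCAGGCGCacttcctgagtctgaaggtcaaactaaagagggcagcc
Ndufs6, chr1:31797150-31797449, plus strand: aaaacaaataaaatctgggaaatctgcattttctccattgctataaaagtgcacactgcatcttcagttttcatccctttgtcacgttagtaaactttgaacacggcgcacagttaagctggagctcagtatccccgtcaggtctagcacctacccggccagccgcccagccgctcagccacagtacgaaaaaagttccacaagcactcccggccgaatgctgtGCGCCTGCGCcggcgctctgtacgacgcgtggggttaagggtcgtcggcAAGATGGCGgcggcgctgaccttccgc
Ndufs1, chr9:72073556-72073855, minus strand: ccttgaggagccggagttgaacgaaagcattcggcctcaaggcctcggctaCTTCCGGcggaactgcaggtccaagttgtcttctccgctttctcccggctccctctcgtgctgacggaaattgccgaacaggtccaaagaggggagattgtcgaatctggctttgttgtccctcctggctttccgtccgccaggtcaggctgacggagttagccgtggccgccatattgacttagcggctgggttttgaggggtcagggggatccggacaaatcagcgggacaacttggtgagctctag

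The searched letters were those marked in Ndufb4 for NRF1, with the sixth base left free, CCGGAAG for ETS factors, AAGATGGCG for YY1, TATAAA for the TATA box, CCAAT, and GGGCGG for the GC box, each on both strands. Counted from 1 at the 5′ end of the window, the capitals of Ndufb4 are the NRF1 letters at bases 253 to 262. Those of Ndufs6 are the NRF1 letters, read on the opposite strand, at 225 to 234 and the YY1 letters at 274 to 282, and those of Ndufs1 are the ETS letters on the opposite strand at 52 to 58. NRF1 letters were found in 8 of 40 member promoters or 20.0%, against 4.25% of 33469 rat promoters. YY1 letters were found in 8 or 20.0% against 1.73%, and ETS letters in 9 or 22.5% against 8.75%. The 33469 promoters were all in the RefSeq set and were not limited to the 14217 measured genes. Whether members differ in these letters from measured genes of like kind was not tested.

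At least 1 of these 3 motifs was present in 21 of 40 member promoters or 52.5%, against 13.4% of all. The TATA box letters were in 3 or 7.5% against 14.2%, CCAAT in 13 or 32.5% against 37.5%, and the GC box in 19 or 47.5% against 33.1%. Members with NRF1 letters had a median percentile of signal of 54.98, those with YY1 letters 66.6 and those with ETS letters 76.0, beside 69.3 for all members. Both high members such as Ndufv3 and low ones such as Ndufaf4 held the NRF1 letters. A match describes the letters in this window and is not a bound site.

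Members differed in how steady they were. The SD over the 9 arrays ran from 0.30 to 1.40 log2 units with a median of 0.63, against 0.55 for all genes, and 27 of 42 members lay above the median of all genes. The most variable was Ndufab1, the mitochondrial acyl carrier protein, with 6.78, 7.39 and 9.87 in pools of 100, 8.24, 7.61 and 9.97 in pools of 200, and 7.02, 10.11 and 9.89 in pools of 400. No array read between 8.24 and 9.87, and each pool size had arrays on both sides of this gap. Ndufaf4 followed with an SD of 1.15, and Ndufa13 of the membrane arm was next. The steadiest were Ndufb4 with 0.30, Ndufa2 of the matrix arm with 0.34 and Ndufb3 with 0.36.

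This spread was split into parts within and between pool sizes. The share of a member's variance found between arrays of the same pool size had a median of 85.5%, against 82.9% over all genes, and was lowest in Ndufa9 at 34.6%. With 3 arrays in each of 3 pool sizes, most of the spread falls within pool sizes even where pool size has no effect. On 14 members or 33.3% each array was above the 50th percentile, against 22.3% of all genes, and 26 or 61.9% had arrays on both sides of it, against 55.9%.

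**Figure D3:**
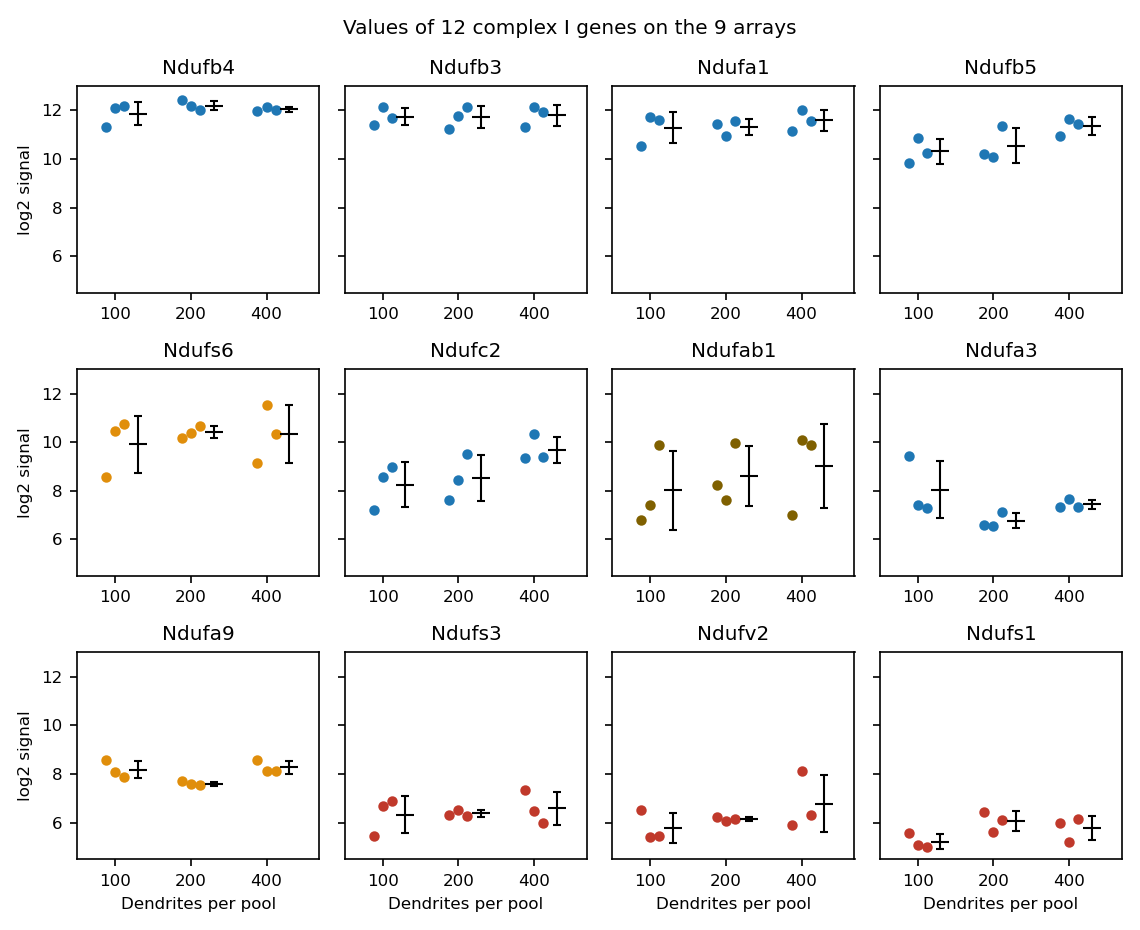
Log2 signal of 12 complex I genes on the 9 arrays by the number of dendrites per pool, with 1 dot per array in the order of the replicate numbers and the mean ± SD of 3 arrays beside them in black. Ndufb4 and Ndufb3 stay within 11.22 and 12.41, Ndufab1 spans 6.78 to 10.11, and Ndufs1 stays within 5.01 and 6.44.

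The number of dendrites in a pool was compared next, to ask whether the complex I genes changed with the amount of starting material. By limma with Benjamini-Hochberg adjustment over 14217 genes, 0 of 42 members passed an adjusted p of 0.05 between 400 and 100, 200 and 100 or 400 and 200 dendrites. The same held for the F test over the 3 pool sizes and for the slope per doubling of dendrites, and 0% of all genes passed in these 5 tests. The lowest adjusted p of a member was 0.999 between 400 and 100 dendrites. With a median standard error of 0.51 log2 units for the members, differences of the usual size here could not be told from 0. An unadjusted p under 0.05 was found for 2 of 42 members between 400 and 100 dendrites, with 2.41% of all genes, for 1 between 200 and 100, with 3.03%, and for 0 between 400 and 200, with 2.3%. The F test gave 0 members with 2.16% of genes, and the slope gave 2 with 2.73%.

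Between 400 and 100 dendrites, Ndufc2 and Ndufb5 of the membrane arm had the smallest unadjusted p. Ndufc2 read 7.22, 8.58 and 8.98 in pools of 100, 7.63, 8.44 and 9.53 in pools of 200, and 9.36, 10.32 and 9.37 in pools of 400. The arrays of the largest pools all lay above those of the smallest, and pools of 200 overlapped both. The difference between 400 and 100 dendrites was 1.42 log2 units with a 95% interval of 0.17 to 2.68, and limma gave an adjusted p of 0.999. Without replicate 1 of pools of 100 the difference was 0.91, and without replicate 2 of pools of 400 it was 1.11, both with an unadjusted p above 0.05.

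Ndufb5 read 9.84, 10.86 and 10.23 in pools of 100, 10.22, 10.08 and 11.36 in pools of 200, and 10.93, 11.65 and 11.45 in pools of 400. The largest and the smallest pools did not overlap. The difference was 1.04 with an interval of 0.06 to 2.01, and limma gave an adjusted p of 0.999. The unadjusted p rose above 0.05 without any 1 of 4 arrays, with differences of 0.80 and 0.996 without replicate 1 or 3 of pools of 100, and 0.88 and 0.98 without replicate 2 or 3 of pools of 400. Per doubling of dendrites, the slope was 0.71 for Ndufc2 and 0.52 for Ndufb5. Groups did not overlap, with 400 dendrites higher, in 2 of 42 members against 3.67% of all genes, and 0 members were wholly lower against 2.58%.

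**Figure D4:**
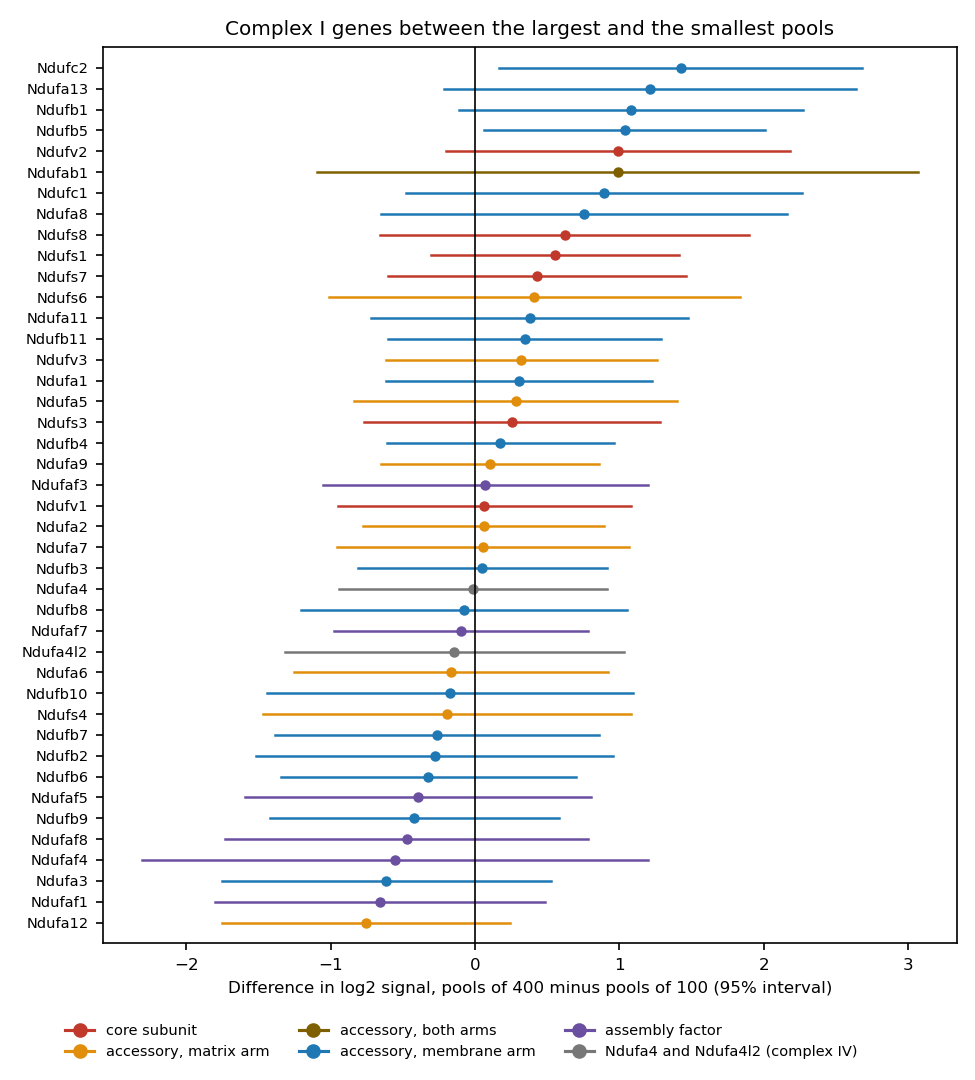
Difference in log2 signal between pools of 400 and pools of 100 dendrites for each of the 42 complex I genes, with the 95% interval from limma, ordered by size and coloured by class. The intervals of Ndufc2 and Ndufb5 lie above 0 and the other 40 cross it.

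No test was made between classes. Between 400 and 100 dendrites, 25 of 42 members were above 0 against 51.5% of all genes, and the median difference was 0.07 against 0.02. The 6 core subunits were all above 0 with a median of 0.49, from 0.06 for Ndufv1 to 0.99 for Ndufv2, of which 0 had an unadjusted p under 0.05 in limma. For Ndufv2, replicate 2 of the largest pools at 8.11 stood apart from the others. The median signal of the core subunits was also highest on that array, at 7.83 against 6.28 to 6.92 on the other arrays. Of the 6 assembly factors 1 was above 0, with a median of -0.43. The 18 accessory subunits of the membrane arm had 11 above 0 and a median of 0.24, and the 9 of the matrix arm had 6 and 0.06. Complex III had a median difference of -0.15, complex IV of -0.03 and ATP synthase of 0.26.

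Between 200 and 100 dendrites the median difference was 0.05 against 0.00 for all genes, with 24 of 42 members above 0 against 50.1%. Ndufa3 of the membrane arm read 9.42, 7.42 and 7.31 in pools of 100, 6.61, 6.55 and 7.11 in pools of 200, and 7.32, 7.66 and 7.33 in pools of 400. Its difference of -1.29 had an interval of -2.43 to -0.15 in limma and did not pass adjustment. Without replicate 1 of pools of 100, the array that read 9.42, it was -0.61, and without replicate 1 or 2 of pools of 200 it was -1.22 or -1.19, each with an unadjusted p above 0.05. Pools of 200 lay wholly below pools of 100 in 2 members, Ndufa3 and Ndufa9, against 3.75% of all genes. They lay wholly above in 1, the core subunit Ndufs1, against 4.05%, with a difference of 0.83 and an interval of -0.03 to 1.69.

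Between 400 and 200 dendrites the median difference was 0.20 against 0.01, and 26 of 42 members were above 0 against 51.1% of all genes. Pools of 400 lay wholly above pools of 200 in 3 members, Ndufa3, Ndufa9 and Ndufs4, against 3.59% of genes, and wholly below in 0 against 3.18%. Ndufa9, a matrix arm subunit at the junction of the arms, read 8.56, 8.07 and 7.88 in pools of 100, 7.70, 7.57 and 7.55 in pools of 200, and 8.59, 8.12 and 8.11 in pools of 400. The pools of 200 were the low ones, by 0.67 against 400 with an interval of -0.09 to 1.42. Its brighter probe set alone gave 0.52, and on that probe set the pools of 200, at 8.34, 7.85 and 7.48, overlapped both other pool sizes. Ndufs4, a small subunit whose loss causes Leigh syndrome, read 6.56, 7.40 and 8.17 in pools of 200 and 8.22, 8.18 and 8.24 in pools of 400, so that the groups were parted by 1 narrow gap.

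Of the members higher in pools of 400 than of 200 dendrites, Ndufc2 and Ndufa9 had the smallest unadjusted p, and of those lower, Ndufaf8 and Ndufa4l2. The difference was 1.15 with an interval of -0.11 to 2.41 for Ndufc2, -0.92 with -2.18 to 0.34 for Ndufaf8, and -0.70 with -1.87 to 0.47 for Ndufa4l2, and all these intervals hold 0. Leaving out 1 array at a time moved the difference of Ndufc2 between 0.70, without replicate 1 of pools of 200, and 1.65, without replicate 3 of pools of 200. Ndufaf8 read 7.54, 8.01 and 8.47 in pools of 200 and 6.22, 8.20 and 6.85 in pools of 400, which overlapped. Its difference was -1.48 without replicate 2 of pools of 400 and -0.48 without replicate 1. For Ndufa4l2 the range was from -1.18 without replicate 3 of pools of 400 to -0.09 without replicate 1. The comparisons share arrays and are not independent of each other.

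Single arrays stood apart from others of the same pool size. On replicates 2 and 3 of pools of 400, 26 of 42 members or 61.9% were above their own median over the 9 arrays, where 42.1% and 45.8% of all genes were. On replicate 2 of pools of 200 this held for 11 members or 26.2%, against 44.4% of all genes, and on replicate 1 of pools of 400 for 15 or 35.7%, against 49.6%. The median signal of the members was 7.997, 7.961 and 8.237 in pools of 100, 8.05, 8.01 and 8.44 in pools of 200, and 8.12, 8.54 and 8.32 in pools of 400. Means over arrays were 8.07 ± 0.15 (SD, n = 3), 8.17 ± 0.24 and 8.32 ± 0.21, which overlapped.

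**Figure D5:**
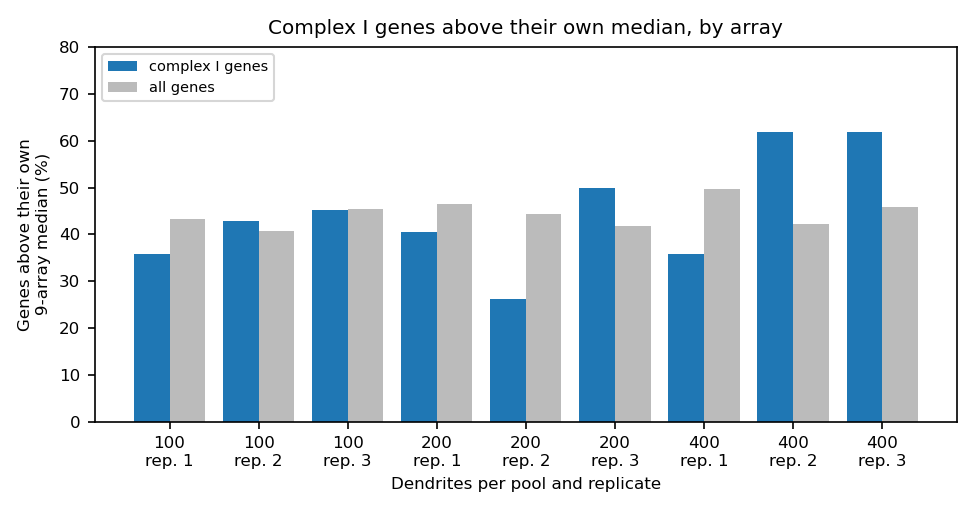
Share of the 42 complex I genes (blue) and of all 14217 genes (grey) above their own median over the 9 arrays, in percent, for each array. The blue bars reach 61.9% on replicates 2 and 3 of pools of 400 and 26.2% on replicate 2 of pools of 200, while the grey bars lie between 40.7% and 49.6%.

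Other lists did not all move alike on these 2 arrays. Complex III had its highest medians there, 9.27 on both, and ATP synthase had 10.10 and 9.84, also its highest. Complex IV had 10.40 and 10.77, against 9.62 to 10.66 on the other arrays, and the assembly factors without the Nduf prefix had 7.06 and 6.92, against 6.78 to 7.62. Markers of pyramidal neurons had 10.07 and 9.10, against 8.77 to 9.77. The difference between the 3′ and 5′ control probe sets of Gapdh, a measure of how far transcripts are represented towards the 5′ end, was 2.42 and 0.84 log2 units on them and 0.84 to 2.99 over all arrays. For beta-actin it was 2.41 and -0.35 on them and -0.43 to 2.41 over all arrays, highest on replicate 2 of pools of 400. Markers of fibroblasts and mural cells had medians of 8.84 and 8.05 there, against 6.44 to 8.34 on the other arrays, and their 6 genes had a median percentile of 33.2. Astrocyte markers had 9.31 and 7.27, against 6.59 to 9.44. The part of RNA quality or of other cells in these shifts was not tested.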

How the data were processed

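The authors deposited log2 probe set signals made with RMA 2.0 per the labels, after repeated linear amplification of the RNA. RMA removes background, equalises the arrays' distributions and summarises each probe set. Affinity differs between probes, and repeated amplification favours 3′ ends, so that signals of different genes are not comparable as amounts. The study's median centring and scaling are not in these values.

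Of 31099 probe sets, 57 controls were set aside. Of the other 31042, 20826 named 1 gene in the platform table, 436 several and 9780 none. Where several probe sets named a gene, their median was used, and no gene was filtered out. All 42 members matched an Entrez ID of the RefSeq table.

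Pool sizes were compared with limma 3.58.1 in R 4.3.3, in 1 model of 9 arrays with empirical Bayes moderation, two-sided, with Benjamini-Hochberg adjustment over 14217 genes and a threshold of 0.05. The fit was tested on simulated data. Ranks and figures used Python 3.11.15 with numpy 2.4.6, pandas 2.3.3, scipy 1.17.1 and matplotlib 3.10.9. Named genes were the 6 highest and 6 lowest members, core subunits, assembly factors, Ndufa4 and Ndufa4l2, per contrast the members of unadjusted p under 0.05 or, with none, the 2 of smallest p in each direction, the 3 of highest and 3 of lowest SD, and those whose probe sets differed most. Others were chosen after their values were seen. The members and lists were chosen with earlier results of these data known, and the split by arm and role with the values known. The number of arrays limits the precision. Alternatives were other summaries of probe sets, a second quantile step, scaling as in the methods, other variance models, the methods' t-test, a replicate block and leaving out each array. Protein sequences were not used here.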

Additional observations from a re-analysis of the deposited data

How the results depend on the processing

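The count of 0 members past the adjusted threshold held under each alternative that was run, for the 3 contrasts, the F test and the slope. The 7 members in the top 5% became 4 with each gene's brightest probe set, and 6 to 7 when 1 array was left out. Other cut-offs gave 4 in the top 5% of the 7109 genes in the upper part by mean, and 13 in the top 2000 genes. The top 5% of all 14217 genes holds 711, so that these 2 counts cannot be set against the 7. The median percentile of 69.3 became 59.2 with the brightest probe set, 75.3 for complex I subunits alone and 63.9 to 72.2 when 1 array was left out, the lowest without replicate 2 of pools of 400. The median difference between 400 and 100 dendrites, 0.07, was 0.27 for complex I subunits alone and 0.06 to 0.21 with 1 array left out. The range was -0.14 to 0.16 between 200 and 100 dendrites, which changes its sign, and 0.01 to 0.29 between 400 and 200. With 1 array left out, 0 to 5, 0 to 2 and 0 to 4 members had an unadjusted p under 0.05 in limma between 400 and 100, 200 and 100, and 400 and 200 dendrites, where 2.24% to 3.64%, 2.58% to 5.13% and 2.03% to 4.36% of all genes did. The 5 came without replicate 1 of pools of 400, with 3.64% of genes, and the 4 without replicate 3 of pools of 200, with 2.57%. The methods' t-test gave 1, 1 and 2, with 2.87%, 3.43% and 2.88% of genes, and 0 after adjustment. Deviations from the group means correlated at -0.19 to 0.09 in 9 pairs of arrays with equal replicate number. In 18 pairs of unequal number the range was -0.19 to 0.22, and 1 of 9 arrays correlated best with its own number. With 3 arrays per pool size, this cannot tell whether equal numbers mark a shared culture, which the labels do not say. With the replicate number as a block, 0 members passed the adjusted threshold and 2, 2 and 1 had an unadjusted p under 0.05 in the same order, with 2.55%, 3.07% and 2.36% of genes, and Ndufc2 between 400 and 200 dendrites had an unadjusted p under 0.05 in limma. No named difference changed its sign. The cause of these changes was not tested, but with the brightest probe set the members' own mean signals did not fall.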
